A study of Homo sapiens with 6 samples.

Results

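The endoplasmic reticulum (ER) folding and degradation genes described here are 40 listed genes of the folding machinery, of ER-associated degradation and of the unfolded protein response, chosen by gene symbol. Their messages were read on 1-colour Affymetrix arrays in the breast cancer line MDA-MB-231, which is of human origin and triple-negative. The MYOSIN10 shRNA group was 3 arrays of cells with a stable short hairpin RNA against MYO10, a motor protein of filopodium tips, and the scramble shRNA group was 3 arrays of cells that stably carried a scrambled hairpin. All cells grew in Leibovitz's L-15 medium with serum and without added CO2. The labels give neither the hairpin sequences nor whether a line was 1 clone or a pool, and they number the samples 1 to 3 without saying that these were separate cultures. The p-values therefore measure how far these samples spread, and that spread may be technical.

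For 38 of the 40 genes the platform annotation lists at least 1 probe set with that symbol alone, and all 38 were tested. Each probe set, a set of oligonucleotides against 1 stretch of transcript, gives 1 value per array, and the brightest one stood for its gene. TXNDC5 and SYVN1, a disulfide enzyme and the ubiquitin ligase HRD1, are listed only with a second symbol on the same probe set, so no value is given for them. All 38 brightest probe sets passed the filter on dim signal on all 6 arrays. Values are log2 signals, and a positive log2 fold change means a higher signal with MYOSIN10 shRNA.

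Proteins that enter the ER pass through the SEC61 channel and are folded by the Hsp70 chaperone BiP (HSPA5) with its J-protein partners, by the lectins calnexin and calreticulin, and by disulfide isomerases. Chains that fail to fold are trimmed, recognised by lectins and moved back to the cytosol for degradation. When unfolded chains accumulate, the sensors IRE1 (ERN1), ATF6 and PERK switch on the unfolded protein response. IRE1 splices the message of XBP1, ATF6 is cut to release a transcription factor, and both products act on promoters of chaperone genes through the ER stress element (ERSE). The array reads XBP1 message as a whole and does not separate spliced from unspliced forms, and it reads no protein.

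The ER stress element is shown because the ATF6 and XBP1 proteins act through it on other listed genes. On the brightest probe sets, the messages of ATF6 and XBP1 lay furthest from 0 among the 38 genes. This did not hold for ATF6 once probe sets were averaged within each gene. XBP1 then stood at -0.69 and ATF6 at -0.16, while SSR1 stood at 0.45 and ERP44 at -0.45. RefSeq promoter windows of GRCh38.p14 were found for 37 of the 40 genes, with no entry for PDIA3, DERL1 and DERL3, and the 250 bases before each listed start were searched on both strands. The classical element, CCAAT and CCACG with 9 bases of any kind between them, was found for 7 of the 37 genes, against 0.0916% of all 27305 genes with a window. In the lines below, capitals mark the CCAAT and CCACG ends, each element is written in its own 5′ to 3′ direction, and the strand is that of the element.
HSPA5: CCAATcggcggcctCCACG (chr9:125241391-125241409, minus strand, 66 to 48 bases before the start)
HSP90B1: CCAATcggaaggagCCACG (chr12:103930216-103930234, plus strand, 194 to 176 bases before the start)
HSP90B1: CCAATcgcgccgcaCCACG (chr12:103930321-103930339, minus strand, 89 to 71 bases before the start)
CALR: CCAATgatggtcgaCCACG (chr19:12938384-12938402, minus strand, 225 to 207 bases before the start)
CANX: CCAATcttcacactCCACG (chr5:179698778-179698796, plus strand, 151 to 133 bases before the start)
PDIA6: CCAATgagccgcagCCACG (chr2:10812853-10812871, minus strand, 86 to 68 bases before its second listed start)
XBP1: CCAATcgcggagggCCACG (chr22:28800603-28800621, minus strand, 52 to 34 bases before the start)
CRELD2: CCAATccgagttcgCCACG (chr22:49918554-49918572, minus strand, 80 to 62 bases before the start)

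The shorter element ERSE-II, ATTGG and CCACG with 1 base of any kind between them, was found for 3 of the 37 genes, against 0.0659% of all genes with a window. Capitals again mark the fixed letters.
HYOU1: ATTGGaCCACG (chr11:119057380-119057390, plus strand, 185 to 175 bases before the start)
HYOU1: ATTGGaCCACG (chr11:119057274-119057284, plus strand, 79 to 69 bases before the start)
HERPUD1: ATTGGgCCACG (chr16:56932025-56932035, plus strand, 117 to 107 bases before the start)
SDF2L1: ATTGGtCCACG (chr22:21642114-21642124, minus strand, 188 to 178 bases before the start)
The core of a further element bound by XBP1, TGACGTGG, was found for 4 of the 37 genes (HYOU1, DNAJC10, SSR3 and TXNDC5), against 0.78% of all genes with a window, and in HYOU1 it overlapped an ERSE-II match on the opposite strand. A match describes the letters in this window and does not show binding. The genes with a window include the 37, which hold 7 of the 25 with the classical element and 3 of the 18 with ERSE-II. The 37 were listed for this pathway, so the shares describe the list and do not test it.

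The 250 bases before the start are given for HSPA5, the main readout of the response, and for XBP1, which is both a carrier of the element and a factor that acts in the response. Capitals mark the whole ERSE.
HSPA5: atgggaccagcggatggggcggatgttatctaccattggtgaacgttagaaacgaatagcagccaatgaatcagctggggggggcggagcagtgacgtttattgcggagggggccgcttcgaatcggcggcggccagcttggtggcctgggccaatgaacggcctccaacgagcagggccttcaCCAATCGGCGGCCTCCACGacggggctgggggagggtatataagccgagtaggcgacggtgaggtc (chr9:125241344-125241593, minus strand)
XBP1: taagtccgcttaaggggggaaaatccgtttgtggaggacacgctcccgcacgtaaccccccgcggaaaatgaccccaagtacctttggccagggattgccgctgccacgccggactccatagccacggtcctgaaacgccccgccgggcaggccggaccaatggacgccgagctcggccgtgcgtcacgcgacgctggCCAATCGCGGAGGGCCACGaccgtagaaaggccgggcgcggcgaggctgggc (chr22:28800570-28800819, minus strand)

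Pairs of the 6 arrays correlated at 0.978 to 0.987 across genes. Scramble array 2 stood apart from its group. On the first principal component, which held 29.9% of the variance, the MYOSIN10 shRNA arrays lay between -20.1 and -14.5, scramble array 2 at -4.45 and scramble arrays 1 and 3 at 28.0 and 25.7. MYO10 itself read 10.70, 11.39 and 10.64 with MYOSIN10 shRNA, against 11.57, 11.96 and 11.86 with scramble shRNA, or 54.2% of the scramble level (limma, Benjamini-Hochberg adjusted p = 0.0303). VIM, CD44, PLAU, AXL and CAV1, genes known to be high in this line, averaged between 13.16 and 14.85 in both groups. The hormone receptors ESR1 and PGR, the cadherin CDH1 and the keratin KRT5 averaged at most 6.99, below the median gene (7.15 to 7.30 per array), while GATA3, listed as low, averaged 10.29 and 10.07 in MYOSIN10 shRNA and scramble shRNA cells. Of markers of other cell types, PTPRC, PECAM1, ACTA2 and ALB averaged at most 6.78, and COL1A1 averaged 7.64 with MYOSIN10 shRNA and 7.68 with scramble shRNA.

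Of the 38 ER genes, 0 were called higher and 0 lower at a limma adjusted p under 0.05 over all 14174 genes tested, against 1.62% of all genes called (1.16% higher and 0.459% lower). Since these are bulk RNA values, fewer cells with a message and less message per cell cannot be told apart. An unadjusted p under 0.05 was reached by 7 of the 38, or 18.4%, against 14.9% of all genes. Of these, 6 had negative and 1 positive log2 fold changes, against 6.39% and 8.49% of all genes in each direction. The groups did not overlap for 6 of the 38 (15.8%), against 19.8% of all genes, with 1 higher (SIL1) and 5 lower (XBP1, ATF6, EDEM1, EDEM3 and SSR3) against 11.2% and 8.56% of all genes. The median log2 fold change of the 38 was -0.056, against 0.0093 over all genes tested, with 16 positive and 22 negative values. The median absolute log2 fold change was 0.0933, against 0.152 over all genes.

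For the brightest probe set of each gene, the size of the difference between these samples could be bounded. The median standard error of the 38 was 0.0931 on the log2 scale, against 0.147 over all genes. The 95% interval of every one of the 38 lay within a 2-fold difference either way, and that of 36 within 1.5-fold. The exceptions to the narrower limit were ATF6 (-0.63 to -0.14) and the dim DERL3 (-0.82 to 0.53). The fold change itself was under 1.1-fold in either direction for 25 of the 38. These intervals are per gene, are not adjusted for the number of genes and do not cover dimmer probe sets, on which some differences were larger. They rest on the spread of these samples, which may be technical, so they may not bound the difference between separate cultures.

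**Figure D1:**
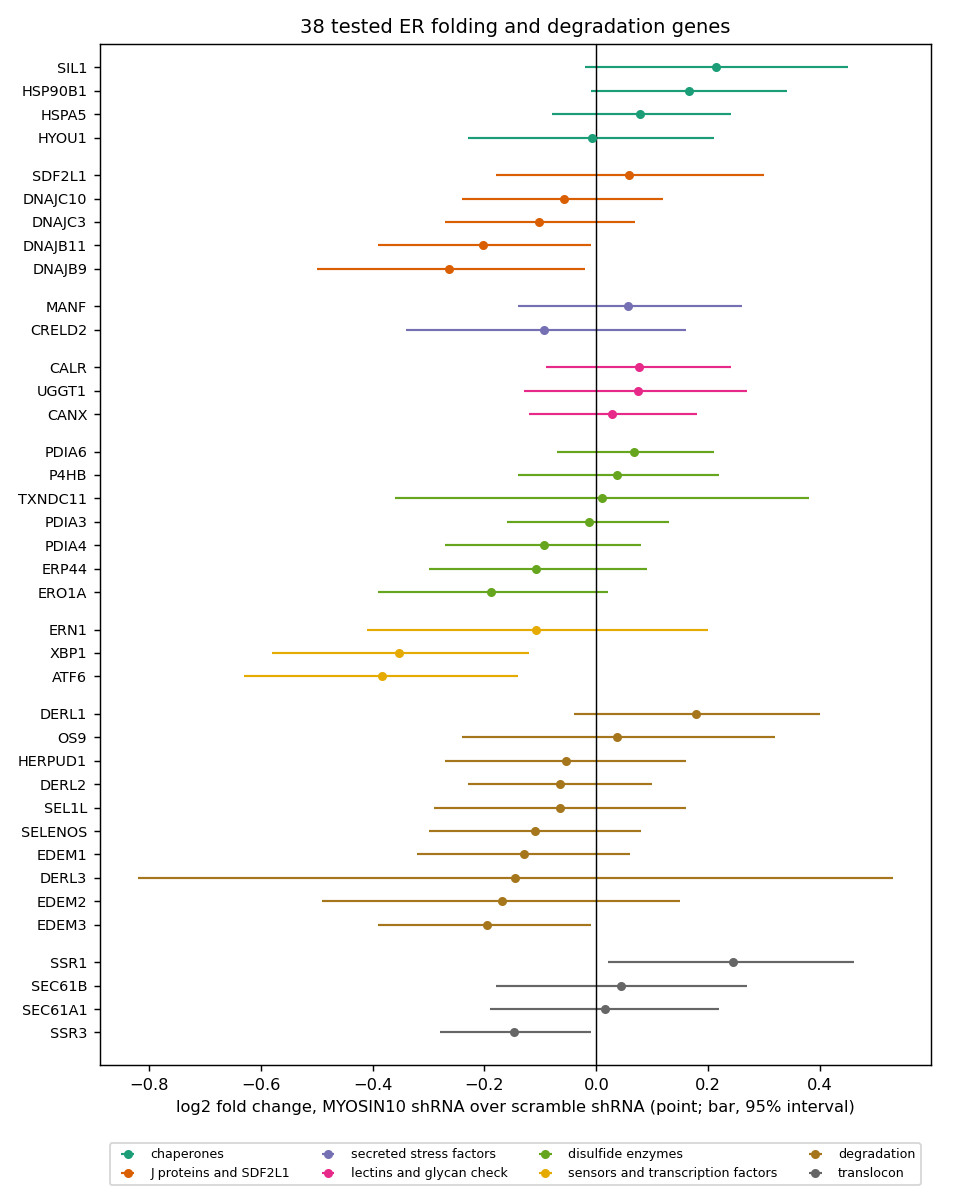
Log2 fold change, MYOSIN10 shRNA over scramble shRNA, of the 38 tested ER genes by role (horizontal axis; point, estimate; bar, 95% interval from limma, 3 arrays per group). ATF6 at -0.38 and XBP1 at -0.35 lie furthest to the left and SSR1 at 0.24 furthest to the right.

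XBP1 and the brightest probe set of ATF6 had the lowest values of the 38 genes. XBP1, the transcription factor whose message IRE1 splices, had log2 signals of 10.81, 10.93 and 10.95 on MYOSIN10 shRNA arrays 1 to 3, against 11.32, 11.04 and 11.39 on scramble arrays 1 to 3. All 3 MYOSIN10 shRNA arrays lay below all 3 scramble arrays, with scramble array 2 the closest to them. The means were 10.90 ± 0.074 and 11.25 ± 0.19 (SD, n = 3 each), a log2 fold change of -0.35 ± 0.10 (SE) that did not pass over all genes (limma adjusted p = 0.124). Its second probe set, which is dim, gave -1.03 (limma adjusted p = 0.315 among all kept probe sets), also without overlap. The mean of both probe sets gave -0.69 (limma adjusted p = 0.0861 over all genes). With array weights XBP1 was -0.41 and called (limma adjusted p = 0.0216), in a fit that called 5.58% of all genes.

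ATF6, the membrane-bound sensor that is cut to release a transcription factor, had 10.88, 10.56 and 10.75 with MYOSIN10 shRNA, against 11.23, 10.92 and 11.20 with scramble shRNA. The groups were separated by a narrow gap, between MYOSIN10 shRNA array 1 and scramble array 2. The log2 fold change was -0.38 ± 0.11 (SE, limma adjusted p = 0.123). With array weights, where XBP1 and 5.58% of all genes were also called, it was -0.39 and called (limma adjusted p = 0.0414). The probe sets of ATF6 disagreed. Of the other 3, 2 gave -0.35 and -0.29 and 1 gave 0.39, each without overlap between the groups and none called. The probe set of opposite sign read 10.01, 9.87 and 9.97 with MYOSIN10 shRNA, against 9.83, 9.69 and 9.15 with scramble shRNA. The direction of ATF6 message therefore depended on the probe set read, and the mean of its probe sets gave -0.16 (limma adjusted p = 0.512).

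ERN1, which encodes the sensor IRE1, showed no such separation. Its log2 signal was 9.1, 9.0 and 9.12 with MYOSIN10 shRNA, against 9.07, 9.02 and 9.46 with scramble shRNA, where array 3 alone was high. The log2 fold change was -0.11 (95% interval -0.41 to 0.20, limma adjusted p = 0.782), and it was 0.033 without scramble array 3.

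HSPA5, the most used readout of the response, read 14.77, 14.66 and 14.80 with MYOSIN10 shRNA, against 14.66, 14.54 and 14.79 with scramble shRNA. The groups overlapped over most of their range. The log2 fold change was 0.08 (95% interval -0.08 to 0.24, limma adjusted p = 0.69). Its dimmer probe set differed, with 9.96, 9.93 and 9.88 with MYOSIN10 shRNA against 10.27, 10.07 and 10.36 with scramble shRNA, a log2 fold change of -0.31 without overlap (limma adjusted p = 0.225 among all kept probe sets). The mean of both probe sets gave -0.12 (limma adjusted p = 0.587).

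The other chaperones had small positive or near-zero values. HSP90B1, the ER form of Hsp90 known as GRP94, stood at 0.16 (adjusted p = 0.372) and SIL1, a nucleotide exchange factor of BiP, at 0.21 (adjusted p = 0.386) in the same limma test. SIL1 was the single gene of the 38 whose MYOSIN10 shRNA arrays all lay above its scramble arrays, with 10.13, 9.89 and 10.16 against 9.88, 9.87 and 9.79, and the gap between the groups was narrow. HYOU1, another exchange factor, stood at -0.0073, with 95% limits of -0.23 and 0.21.

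Among the J proteins, which deliver clients to BiP, DNAJB9 and DNAJB11 had unadjusted p-values under 0.05. DNAJB9, also known to restrain IRE1, had 10.62, 10.57 and 10.58 with MYOSIN10 shRNA, against 11.01, 10.61 and 10.94 with scramble shRNA. The MYOSIN10 shRNA arrays were tightly grouped, and scramble array 2 lay among them. Its log2 fold change was -0.26 ± 0.11 (SE, limma adjusted p = 0.291), and the other 2 probe sets gave -0.28 and -0.24.

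DNAJB11, a soluble J protein that binds unfolded chains, had 12.37, 12.57 and 12.34 with MYOSIN10 shRNA, against 12.72, 12.51 and 12.66 with scramble shRNA. In each group array 2 lay toward the other group, so the ranges crossed. This gave a log2 fold change of -0.20 ± 0.088 (SE, limma adjusted p = 0.31). DNAJC3, a J protein that also inhibits PERK, stood at -0.10, DNAJC10, a J protein that also reduces disulfides, at -0.06, and SDF2L1, a partner of DNAJB11, at 0.06, with limma adjusted p-values of 0.609 to 0.858. The secreted stress proteins CRELD2 and MANF stood at -0.09 and 0.06.

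The lectin cycle was nearly level. Calreticulin (CALR) stood at 0.08, calnexin (CANX) at 0.03 and UGGT1, the glucosyltransferase that returns misfolded glycoproteins to them, at 0.07, with limma adjusted p-values from 0.705 to 0.896 and 95% half-widths of 0.165 at the median. The 7 measured disulfide enzymes ran from -0.19 to 0.07. ERO1A, the oxidase that recharges the isomerases, gave the lowest value (limma adjusted p = 0.387), while P4HB, PDIA3, PDIA4 and PDIA6, the main isomerases, ran from -0.09 to 0.07, and TXNDC11, an ER thioredoxin-domain protein, stood at 0.01.

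ERO1A and ERP44, an ER protein known to hold ERO1A in place, varied by probe set. The 3 probe sets of ERO1A gave -0.19, 0.16 and -0.09 in order of brightness. Those of ERP44 gave -0.11, -0.49 and -0.75, the 2 dimmer without overlap between the groups and none called.

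In the degradation group, 8 of 10 measured genes had negative values, against 48.2% of all genes. The values ran from -0.20 to 0.18, and 0 genes were called, against 1.62% of all genes. A separate list of 14 other ER degradation genes, described below, had 9 positive and 5 negative values. EDEM3, a mannosidase that marks glycoproteins for degradation, had 11.08, 10.97 and 11.13 with MYOSIN10 shRNA, against 11.34, 11.18 and 11.25 with scramble shRNA. The groups were close but did not overlap. The log2 fold change was -0.20 ± 0.087 (SE, limma adjusted p = 0.318), and the other probe sets gave -0.34 and -0.20. Its relatives EDEM1 and EDEM2 stood at -0.13 and -0.17.

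DERL1, a channel-like protein of the degradation complex, differed in sign from most of this group. It stood at 0.18 (limma adjusted p = 0.449), and its other probe sets gave 0.19, 0.29 and 0.54, the first and the second of these without overlap between the groups. DERL2 stood at -0.07. SEL1L, the adaptor of HRD1, stood at -0.07, HERPUD1, a strongly inducible organiser of the complex, at -0.05, SELENOS at -0.11 and the lectin OS9 at 0.04. The dimmer probe sets of SEL1L gave -0.27, -0.04 and, on the dimmest, -0.53 without overlap (limma adjusted p = 0.405 among all kept probe sets).

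SSR1 and SSR3 encode subunits of the translocon-associated protein complex, which assists the SEC61 channel, and lay on opposite sides of 0. The remaining subunits, SSR2 and SSR4, belong to the wider list of ER genes and stood at -0.12 and -0.10 (limma adjusted p = 0.578 and 0.73). SSR1, its alpha subunit, had 14.34, 14.23 and 14.10 on the MYOSIN10 shRNA arrays, against 13.75, 14.15 and 14.03 on the scramble arrays. The ranges crossed, with scramble array 1 the lowest. On this probe set the log2 fold change was 0.24 ± 0.10 (SE, limma adjusted p = 0.289).

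The 5 dimmer probe sets of SSR1 showed a larger difference than the brightest. All 6 had positive values, from 0.24 to 0.63, and the groups did not overlap on the 5 dimmer ones. The second brightest had 12.50, 12.56 and 12.36 with MYOSIN10 shRNA, against 11.65, 12.19 and 11.70 with scramble shRNA. It rose by 0.63 ± 0.13 (SE, limma adjusted p = 0.0367 among all kept probe sets), and it was the single called probe set of the 96 kept for the 38 genes, against 1.06% called of all 33370 kept. The other 4 had limma adjusted p-values of 0.0933 to 0.183. With the mean of all its probe sets, SSR1 stood at 0.45 (limma adjusted p = 0.0622 over all genes).

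SSR3, the gamma subunit, had 13.54, 13.57 and 13.59 with MYOSIN10 shRNA, against 13.70, 13.71 and 13.74 with scramble shRNA. The spread within each group was small and the ranges were apart. The resulting log2 fold change was -0.15 ± 0.061 (SE, limma adjusted p = 0.285). All 4 probe sets were negative, from -0.29 to -0.15. The channel subunits SEC61A1 and SEC61B stood at 0.01 and 0.04.

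**Figure D2:**
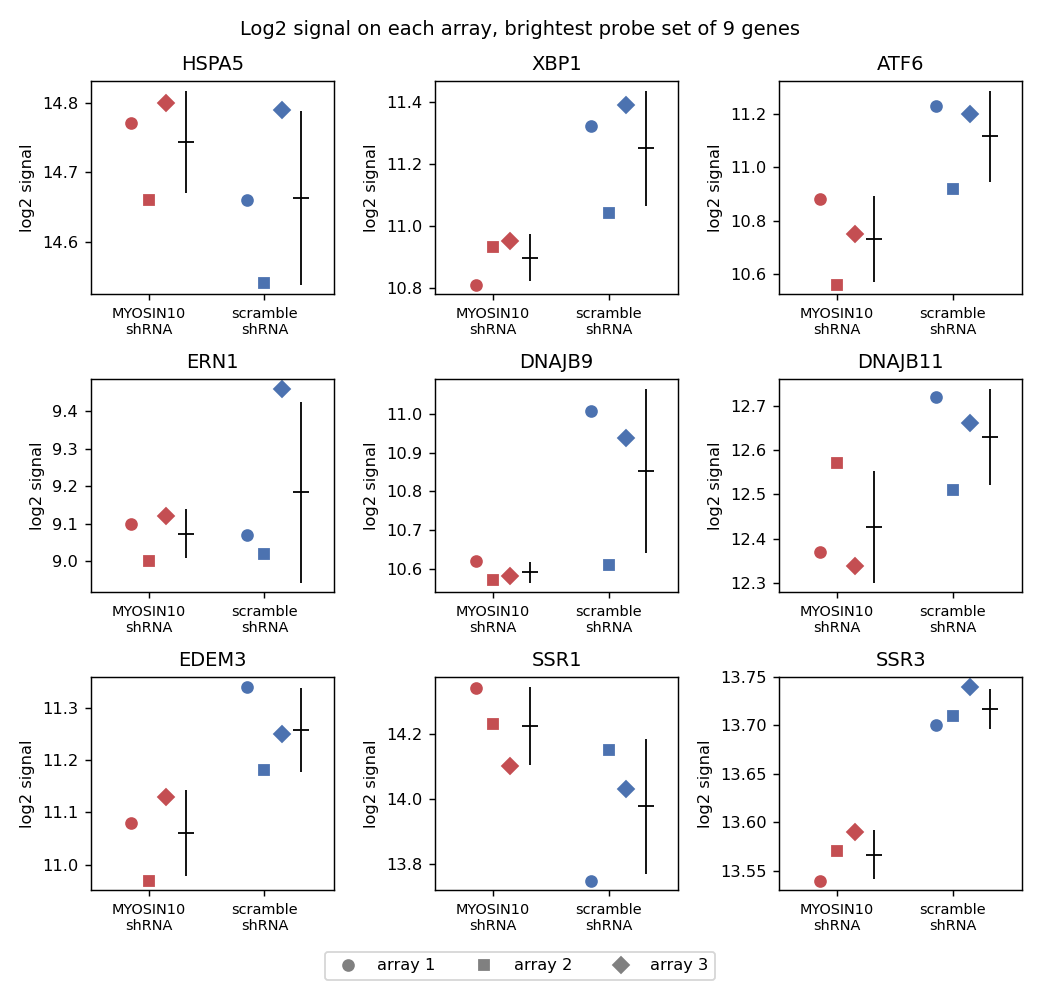
Log2 signal (vertical axis, own scale in each panel) on each array for HSPA5, the 3 sensor and factor genes and the 5 other genes with an unadjusted p under 0.05, MYOSIN10 shRNA left and scramble shRNA right. Symbols mark arrays 1 to 3 and the black bars the mean ± SD (n = 3). The groups are apart for XBP1, ATF6, EDEM3 and SSR3 and cross for the other 5.

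Over the 38 genes, 27 had at least 2 kept probe sets, and in 15 of these all had the same sign. In the other 12 at least 1 dimmer probe set had the opposite sign to the brightest: ATF6, CALR, CANX, DERL2, DERL3, DNAJC10, DNAJC3, ERN1, ERO1A, HSPA5, SEC61B and UGGT1. Of the 96 kept probe sets, 45 were positive and 51 negative, and the groups did not overlap on 25 (26.0%), against 18.1% of all kept probe sets. Probe sets of the same gene are not independent, and SSR1 gave 5 and ATF6 4 of the 25. Counted by gene, the share without overlap was 15.8%, against 19.8% of all genes. The brightest probe set of 5 genes (HSP90B1, CALR, PDIA6, DERL3 and OS9) carries the suffix _x_at, the maker's mark for oligonucleotides that may also bind other transcripts.

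**Figure D3:**
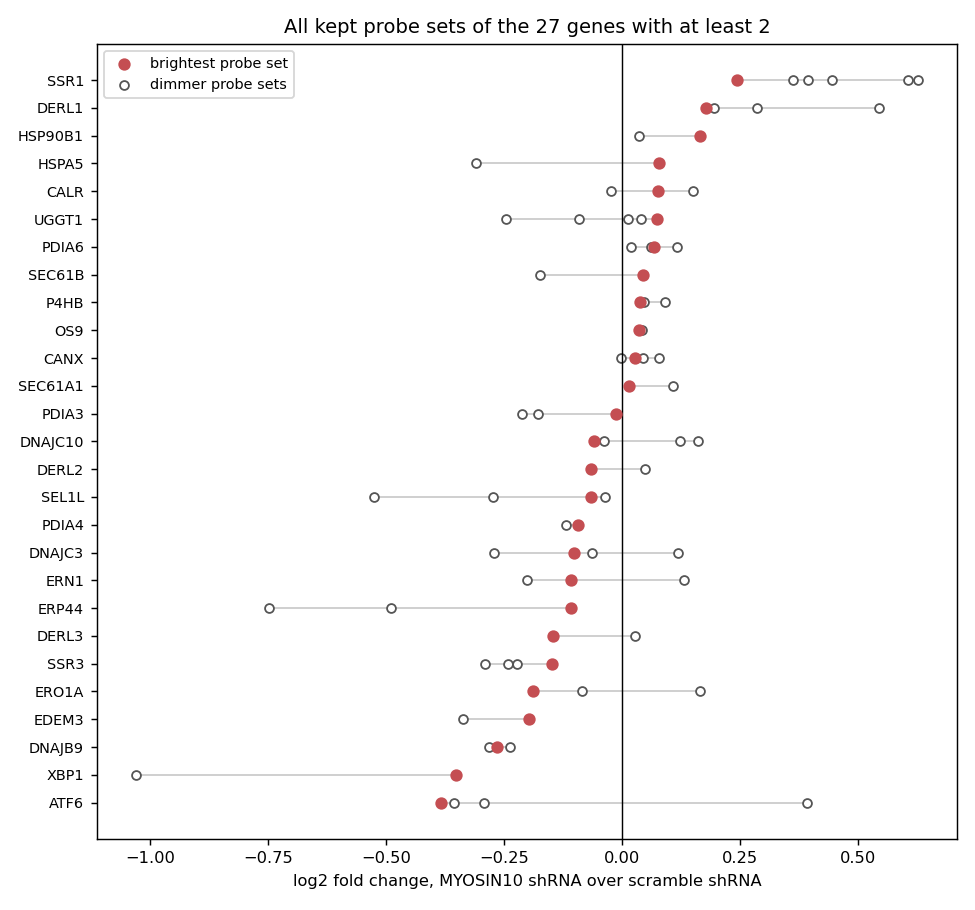
Log2 fold change, MYOSIN10 shRNA over scramble shRNA, of every kept probe set of the 27 ER genes with at least 2 (1 line per gene; filled, brightest; open, dimmer). All 6 probe sets of SSR1 lie right of 0 and all 4 of SSR3 left of it, while ATF6 spans -0.38 to 0.39.

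Carriers of the ER stress element lay on both sides of 0. Of the 10 tested genes with an ERSE or ERSE-II match, 6 had positive and 4 negative log2 fold changes, with a median of 0.0427 and a range of -0.35 (XBP1) to 0.16 (HSP90B1). The 25 other tested genes with a promoter window had 9 positive and 16 negative values and a median of -0.0938. This is a description, since the genes were not sampled independently of their pathway.

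The arrays numbered 2 read low for many of the ER genes. Scramble array 2 was the lowest of its group for 23 of the 38 ER genes (60.5%), against 40% of all genes, and MYOSIN10 shRNA array 2 was the lowest of its group for 21 (55.3%), against 38.9%. The median difference of the arrays numbered 2 from the other 4 was -0.10 over the 38 genes, against -0.01 over all genes tested. This shift cuts across the hairpin groups, and what the arrays numbered 2 share was not tested. The arrays numbered 2 also stood apart over all genes, where a median near 0 can hold shifts in both directions. On the second principal component they lay at -19.9 (MYOSIN10 shRNA) and -23.7 (scramble shRNA), against -0.515 to 22.2 for the other 4.

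**Figure D4:**
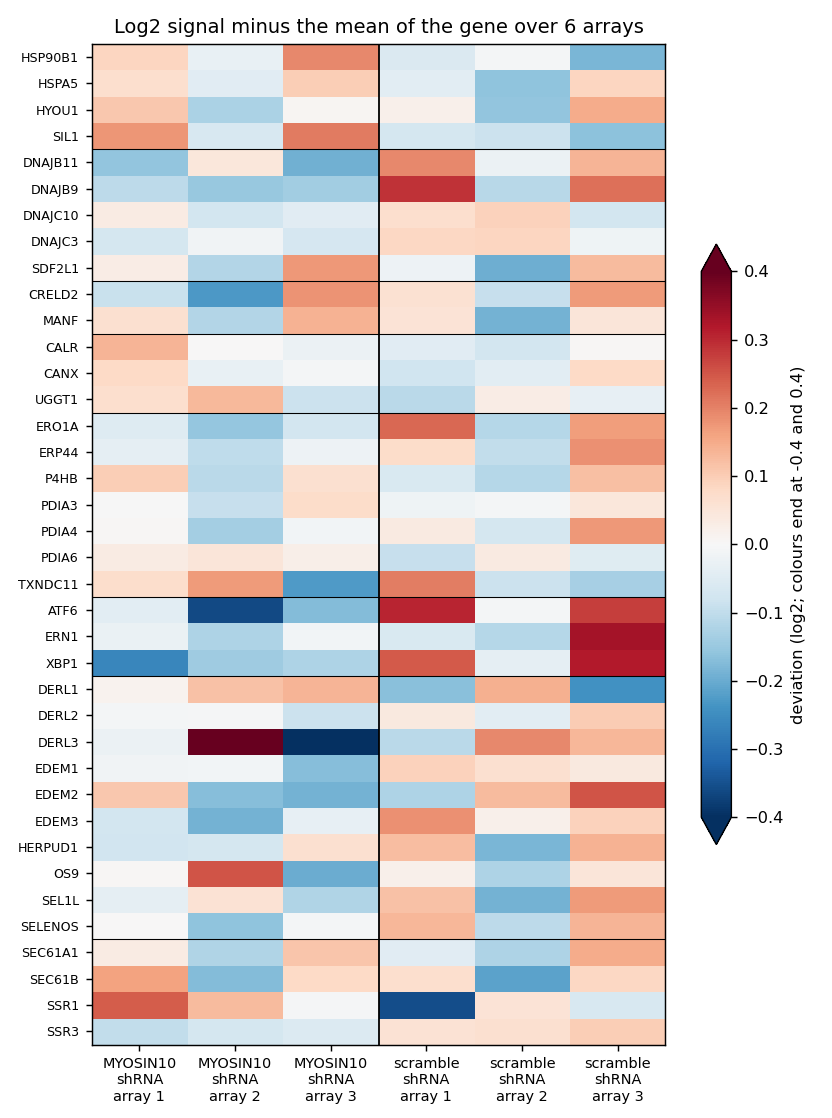
Log2 signal of each of the 38 ER genes (rows, by role) on each array (columns, MYOSIN10 shRNA left) minus the gene's mean over 6 arrays, red higher and blue lower. The arrays numbered 2 are the lowest of their group in 21 and 23 of the 38 rows, and the rows of XBP1 and ATF6 are blue on the left and red on scramble arrays 1 and 3.

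Without scramble array 2, 5 of the 38 ER genes were called, against 6.8% of all genes. XBP1 stood at -0.46 ± 0.087 (SE, limma adjusted p = 0.00923), ATF6 at -0.48 (0.0165), DNAJB9 at -0.39 (0.0211) and ERO1A at -0.29 (0.0419) as limma adjusted p-values, all lower with MYOSIN10 shRNA, and DERL1 at 0.29 (limma adjusted p = 0.0461) was higher. Without both arrays numbered 2, 4 were called, against 8.64% of all genes: XBP1 at -0.47, ATF6 at -0.40, DNAJB9 at -0.38 and DNAJB11 at -0.34, with limma adjusted p-values of 0.00614 to 0.019. Scramble array 2 was singled out because it lay toward the MYOSIN10 shRNA arrays, so these calls are not independent evidence. Without any other single array, 0 of the 38 were called, against 0.466% to 1.45% of all genes in those fits. XBP1 remained negative without each array in turn, between -0.46 and -0.28.

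**Figure D5:**
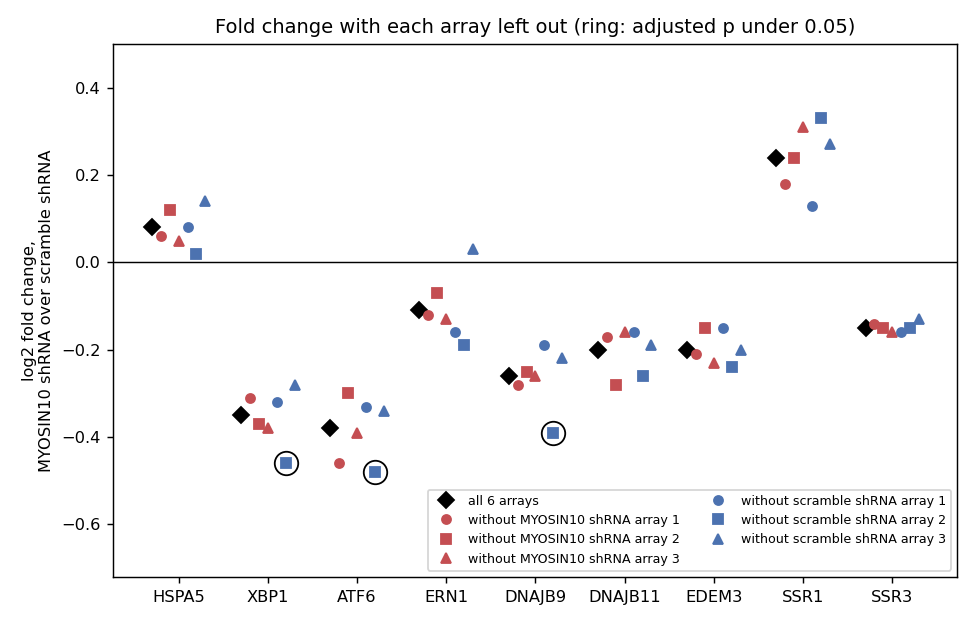
Log2 fold change, MYOSIN10 shRNA over scramble shRNA (vertical axis), of 9 ER genes with all 6 arrays (black) and without each array in turn. Rings mark a limma adjusted p under 0.05, reached here by XBP1, ATF6 and DNAJB9 without scramble array 2.

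A wider list of 64 other ER genes, of which 59 were measured, held 1 call, or 1 of 59 against 1.62% of all genes, a share near the background. ATF4, a transcription factor whose translation the PERK branch raises under stress, fell to 12.52, 12.51 and 12.51 with MYOSIN10 shRNA, against 13.08, 12.83 and 13.13 with scramble shRNA. Its log2 fold change was -0.50 ± 0.085 (SE, limma adjusted p = 0.0136). The call was lost without scramble array 1 (limma adjusted p = 0.0893) or 3 (0.0747), without MYOSIN10 shRNA array 1 (0.0728) or 3 (0.0734), and without the variance trend (0.182), while the log2 fold change in these fits stayed between -0.50 and -0.44. Without scramble array 2 it was -0.59 (limma adjusted p = 0.00051), in a fit that called 6.8% of all genes. That array was singled out for lying toward the MYOSIN10 shRNA arrays, so this value is not independent evidence. The median of the 59 was -0.027, with 27 positive and 32 negative values.

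Beside ATF4, the PERK branch had 0 calls among its other 9 genes, and 3 of them had an unadjusted p under 0.05, against 1.62% and 14.9% of all genes at these thresholds. CEBPB, a transcription factor that can pair with ATF4, stood at 0.30 (limma adjusted p = 0.144) with the groups apart. TRIB3, CHAC1 and ATF3 stood at -0.30, -0.63 and -0.14 (limma adjusted p = 0.324, 0.308 and 0.755), and their groups overlapped. EIF2AK3, which encodes PERK, stood at 0.29, DDIT3 (CHOP) at 0.06 and PPP1R15A (GADD34), which resets translation, at -0.14, with limma adjusted p-values of 0.362, 0.892 and 0.515. The genes beside ATF4 were chosen for naming after their values were seen.

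In the other 3 lists 0 genes were called, with 1 of 14 degradation genes, 4 of 20 folding genes and 2 of 15 entry and glycosylation genes at an unadjusted p under 0.05 in limma (7.14%, 20% and 13.3%), against 14.9% of all genes. The smallest p-values in degradation were those of UBXN4 at 0.17, an ER anchor for VCP, and RNF139, an ER ubiquitin ligase, at 0.27 (limma adjusted p = 0.277 and 0.345). In folding they were TXNDC12, a thioredoxin-like ER protein, at -0.33 and SERP1 at 0.21 (0.108 and 0.228 in the same limma test), and SERP1 turned to -0.062 without _s_at and _x_at probe sets. In entry and glycosylation they were SPCS3, a signal peptidase subunit, at -0.32 and STT3B, a catalytic subunit of the oligosaccharyltransferase, at -0.18 (0.222 and 0.247 in the same limma test). SPCS3 stood at -0.058 with the mean of its probe sets and at 0.021 without _s_at and _x_at probe sets.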

How the data were processed

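The deposited values are log2 signals, 1 per probe set and array. MAS5 is named in the submitters' processing notes. Its version and settings were not stated there. The log2 scale was read from the values: the trimmed mean of the linear signals was 500.07 to 500.08 on every array. Medians of the deposited log2 values were 5.65 to 5.80. Arrays carry no read depth, and their number, 3 per group, limits the precision.

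The fit used log2 of the linear signal plus 16. This understates the fold change of dim signals. A probe set was kept where 3 or more of the 6 arrays had it at or above the 40th percentile (33370 of 54675). The platform annotation lists 1 symbol for 41097, several for 1801 and none for 11777 probe sets, and 41043 symbols were updated by Entrez number through RefSeq (GRCh38.p14). The brightest kept probe set stood for each gene, giving 14174 genes.

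The comparison used R 4.3.3 with limma 3.58.1 (a variance trend in eBayes, group as the sole term, two-sided, Benjamini-Hochberg over all genes tested). The steps were tested on simulated data with independent noise and planted changes of 1 log2 unit. That test does not show whether differences as small as those of the ER genes would be called. Probe sets were also fitted together, with adjustment over all kept. Values per array are given for HSPA5, XBP1, ATF6 and ERN1 and for listed genes with an unadjusted p under 0.05, and for called genes of the other ER lists, with fold changes for the 2 smallest p of each other list. SIL1, the ATF6, HSPA5 and SSR1 dimmer probe sets and MYO10 are given per array beside this rule, SIL1 after its values were seen. The genes, lists and tests were chosen with earlier results of these data known, so no set test was run. Deviations of same-numbered arrays correlated at 0.0587, 0.163 and 0.0397 for numbers 1, 2 and 3. Array 1 against array 3 of the other group gave 0.0655 and 0.0412, so the numbers were not taken to pair the samples. The value for number 2 was the highest, and the main fit does not remove what those arrays share. Plots come from matplotlib 3.10.9 under Python 3.11.15.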

Additional observations from a re-analysis of the deposited data

How the results depend on the processing

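Over 17 alternatives the median log2 fold change of the ER genes ran from -0.103 to 0.00238, against -0.056 in the main fit. The highest value, without scramble array 3, had the opposite sign. Each shift was smaller than 0.0676, the spread (SD) of the array medians within groups. That spread is larger than the main median itself, so it cannot tell a kept median from a lost one. Called ER genes were 0 with another added constant, filter, quantile normalization, probe set rule or variance model, against 0.0494% to 2.49% of all genes. Array weights gave 2 (ATF6 and XBP1), against 5.58% of all genes. The replicate number as a block gave 1 (ATF6, limma adjusted p = 0.0219), against 4.31% of all genes. Leaving out both arrays numbered 2 gave 4, against 8.64% of all genes. With each array left out in turn, 0 to 5 ER genes were called, against 0.466% to 6.8% of all genes. Of the 59 other ER genes, 0 were called without the variance trend, against 0.0494% of all genes. The replicate number as a block gave 4, against 4.31%, and leaving out both arrays numbered 2 gave 6, against 8.64%. Leaving out each array gave 0 to 4, against 0.466% to 6.8% of all genes. Over all genes, 126 were called without a filter (0.637%), 111 when probe sets of a gene were averaged (0.783%) and 7 without the variance trend. Calls over all genes numbered 791 with array weights, 611 with the replicate block and 1224 without both arrays numbered 2. With each array left out, 66 to 964 were called, the highest without scramble array 2. Sign changes were followed only for the genes named by the rule above. Among these the sign turned for HSPA5 with the mean of its probe sets (-0.12). It turned for ERN1 without scramble array 3 (0.033, where leaving out each array gave -0.19 to 0.033). Without _s_at and _x_at probe sets it turned for SERP1 (-0.062) and SPCS3 (0.021), while EDEM3 has only such probe sets. Other ER genes near 0 also changed sign, such as DNAJC10 (0.05), UGGT1 (-0.04) and SEC61B (-0.06) with the mean of probe sets. The cause of these differences was not tested. Low signal limits DERL3 most, with a standard error of 0.309.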
